A study of Mus musculus with 16 samples.

Results

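The 6 genes described here, chosen by symbol, were the receptor genes Ntrk2 (TrkB), Ntrk3 (TrkC) and Ngfr (the p75 receptor), the sorting receptor gene Sort1 (sortilin) and the ligand genes Bdnf and Ntf3 (neurotrophin-3), out of 24411 genes in the tables. All 6 passed the filter on low counts that left 16665 genes for testing. They were measured by RNA sequencing in 16 mouse libraries, 12 of celiac ganglia, a sympathetic ganglion, dissected at 2 weeks of age, and 4 of tumors whose age the sources used here do not give. The ganglia came from mice without the Th-MYCN transgene and wild-type for Runx1t1 (n = 4) or heterozygous for a Runx1t1 knockout (n = 3), and from mice homozygous for Th-MYCN and wild-type (n = 3) or heterozygous (n = 2) for Runx1t1. The tumors came from mice homozygous for Th-MYCN with wild-type Runx1t1 (n = 4). In the transgene, the tyrosine hydroxylase (Th) promoter drives human MYCN in neural crest derived cells, and the knockout is an insertional inactivation of the transcriptional corepressor Runx1t1. The study asked how MYCN, Runx1t1 copy number and tumor formation bear on the ganglion transcriptome. The labels give neuroblastoma as the cell type of every sample, ganglia included. Nothing in the sources says that libraries of a group came from separate mice, so the p-values below measure the spread between these libraries.

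Neurotrophins are secreted growth factors that sympathetic neurons need for survival, axon growth and target innervation. Each ligand binds a Trk receptor tyrosine kinase with high affinity, brain-derived neurotrophic factor (BDNF) to TrkB and neurotrophin-3 mainly to TrkC, while all of them, and their unprocessed precursors, bind the p75 receptor. In human neuroblastoma the Trk family has long been studied, and TrkB with its ligand BDNF is known from aggressive tumors.

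The libraries held 10692299 to 38618757 counts. Runx1t1 itself, which an insertion need not lower at the transcript level, was at 2.78 to 4.41 TPM (a length-corrected share of a library's transcripts) in transgene-free wild-type ganglia, 4.36 to 6.28 TPM in transgene-free het ganglia, 7.90 to 70.3 TPM in MYCN wild-type ganglia, 8.83 and 16.9 TPM in MYCN het ganglia and 29.5 to 55.8 TPM in tumors. Replicate 2 of the transgene-free wild-type ganglia stood apart, with 704 TPM summed over 5 lymphocyte markers against at most 20 TPM in any other library. The summed TPM of 12 sympathetic neuron markers was 6143 to 17049 in ganglia and 2171 to 3582 in tumors, with none of the 12 at 0 in any library. The summed TPM of 11 satellite glia and Schwann cell markers was 679 to 2831 in ganglia and 65.8 to 113 in tumors. In bulk tissue such as this, fewer cells of a type and less RNA of a gene per cell cannot be told apart.

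In tumors the receptor genes Ngfr and Ntrk2 were far lower than in ganglia, and the ligand gene Bdnf was higher than in ganglia without the transgene. Against all transgene-free ganglia, 3 of the 6 genes passed the test, Ngfr and Ntrk2 lower and Bdnf higher, while 61.4% of all genes tested were called in this comparison. Against MYCN ganglia with wild-type Runx1t1, Ngfr and Ntrk2 were called lower and no gene of the 6 higher, with 34.5% of all genes called. Against MYCN ganglia heterozygous for Runx1t1, the same 2 genes were called lower, with 45.5% of all genes called. The count of called members is therefore close to or below the background share in each tumor comparison. The median log2 fold change of the 6 genes was -1.34, -1.27 and -0.91 in these comparisons, beside -0.06, -0.01 and 0.07 over all genes. Tests used edgeR's quasi-likelihood method with Benjamini-Hochberg adjustment over all 16665 genes at a threshold of 0.05. The 3 tumor comparisons share the tumor libraries.

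**Figure D1:**
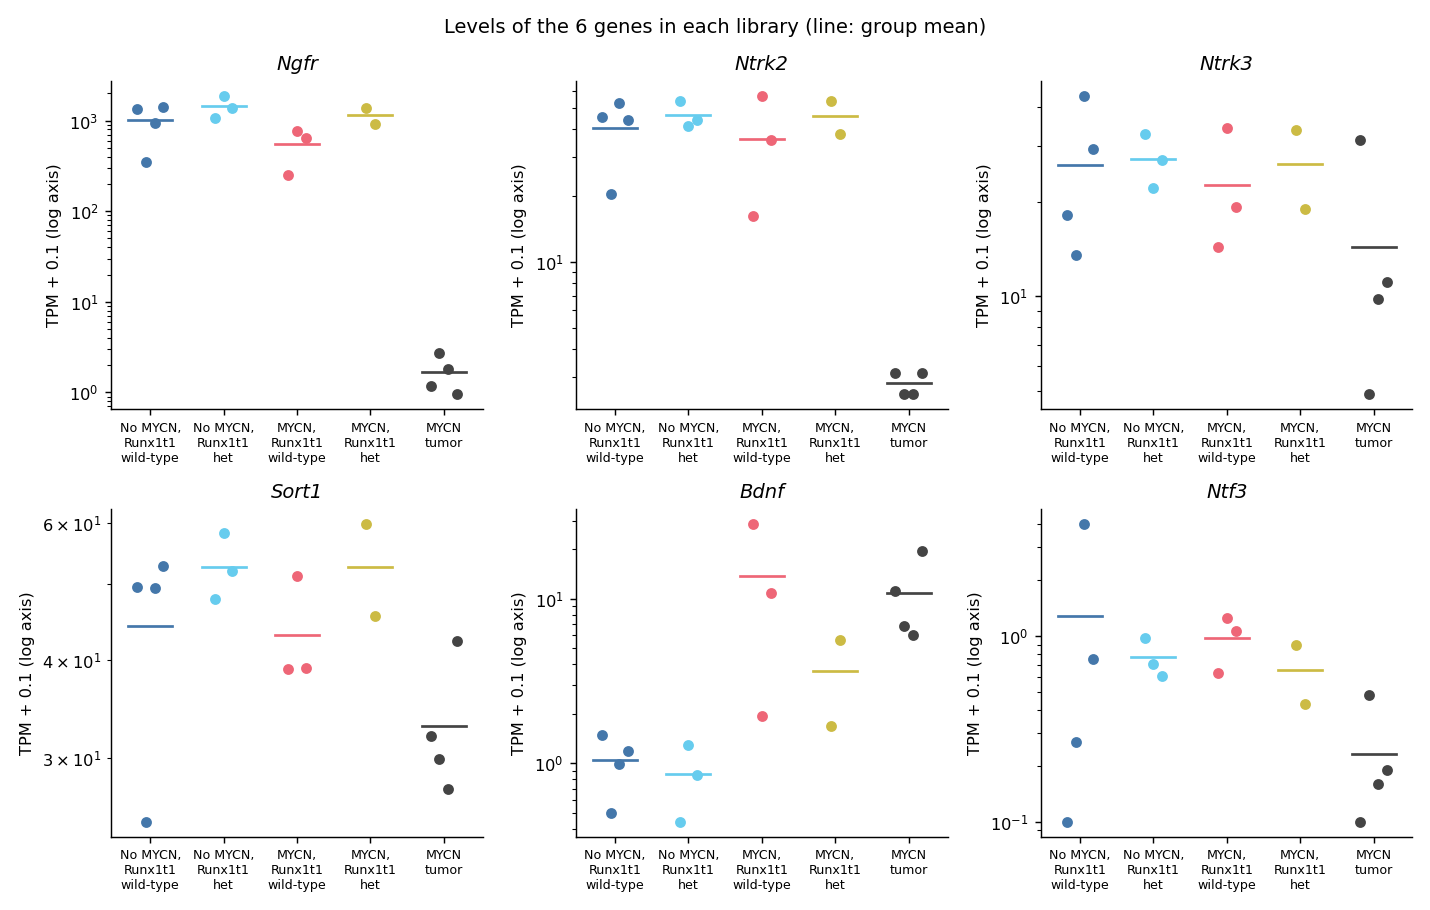
Level of each gene in every library, as TPM + 0.1 on a log axis, by group (points, libraries; lines, group means). Ngfr and Ntrk2 are lower in all 4 tumors than in any ganglion, and Bdnf is lowest in the 7 transgene-free ganglia.

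**Figure D2:**
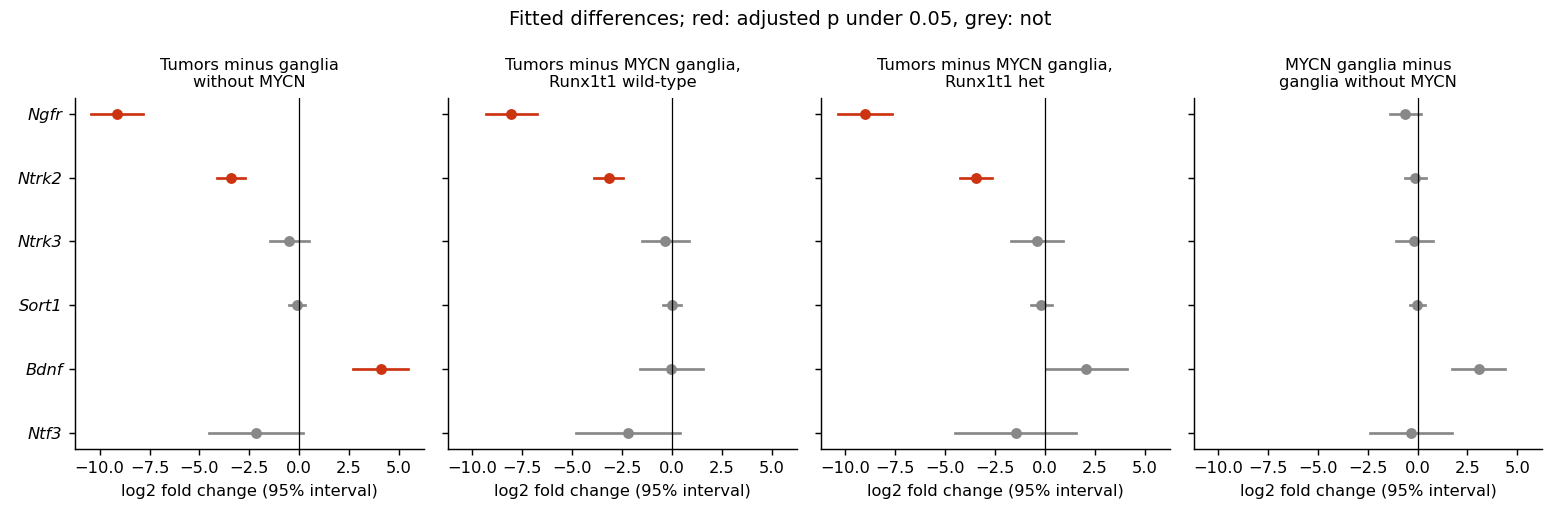
Fitted log2 fold change (points) with its 95% interval (lines) for each gene in 4 comparisons, red where the adjusted p is under 0.05. Ngfr lies at -9.14, Ntrk2 at -3.42 and Bdnf at 4.08 in the comparison of tumors with ganglia without MYCN.

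Ngfr encodes the p75 receptor, which binds every neurotrophin and proneurotrophin and works with Trk receptors in sympathetic neurons. The gene lies at chr11:95568818-95587735 on the minus strand of mm10 (GRCm38). Ngfr was at 1331, 353, 948 and 1414 TPM in the transgene-free wild-type ganglia and at 1063, 1868 and 1378 TPM in the transgene-free het ganglia. It was at 250, 769 and 650 TPM in MYCN wild-type ganglia and at 1367 and 925 TPM in MYCN het ganglia. In the 4 tumors it was at 1.07, 2.61, 1.71 and 0.86 TPM, from 50, 172, 84 and 56 counts. Every ganglion was thus far above every tumor, and the transgene-free replicate 2 and MYCN wild-type replicate 1 were the lowest of the ganglia. Among all genes in the table, Ngfr ranked between 39 and 547 by TPM in the ganglia and between 11557 and 13220 in the tumors.

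On the fitted scale Ngfr was 564-fold lower in tumors than in transgene-free ganglia (95% interval 230 to 1381), a log2 fold change of -9.14 ± 0.60 (SE, edgeR adjusted p = 2.35e-07). The log2 fold change was -8.05 ± 0.59 against MYCN wild-type ganglia (edgeR adjusted p = 1.62e-06) and -9.02 ± 0.62 against MYCN het ganglia (edgeR adjusted p = 4.69e-07). Both neuronal and glial markers were lower in tumors too. Relative to 1000 TPM of summed neuron markers, Ngfr was at 36.5 to 110 in ganglia and 0.299 to 1.2 in tumors, and relative to 1000 TPM of summed glial markers at 278 to 883 and 12.4 to 23.1. The fall of Ngfr was thus larger than that of either marker sum, while the single neuron marker Prph fell about as far (-8.90). In tumors against transgene-free ganglia, 30.9% of all genes were called lower and 30.6% higher. Of the 12 neuron markers, 8 fell there, 2 rose and 2 did not pass the test. All 11 glial markers fell, with Sox10 at 38.5 to 187 TPM in ganglia and 0.73 to 2.91 TPM in tumors, and at most 1 of the 11 was at 0 in a tumor. The 7 fibroblast markers fell as well, from a sum of 892 to 7934 TPM in ganglia to 174 to 512 TPM in tumors. What part the cell mixture has in the fall of Ngfr was not tested.

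**Figure D3:**
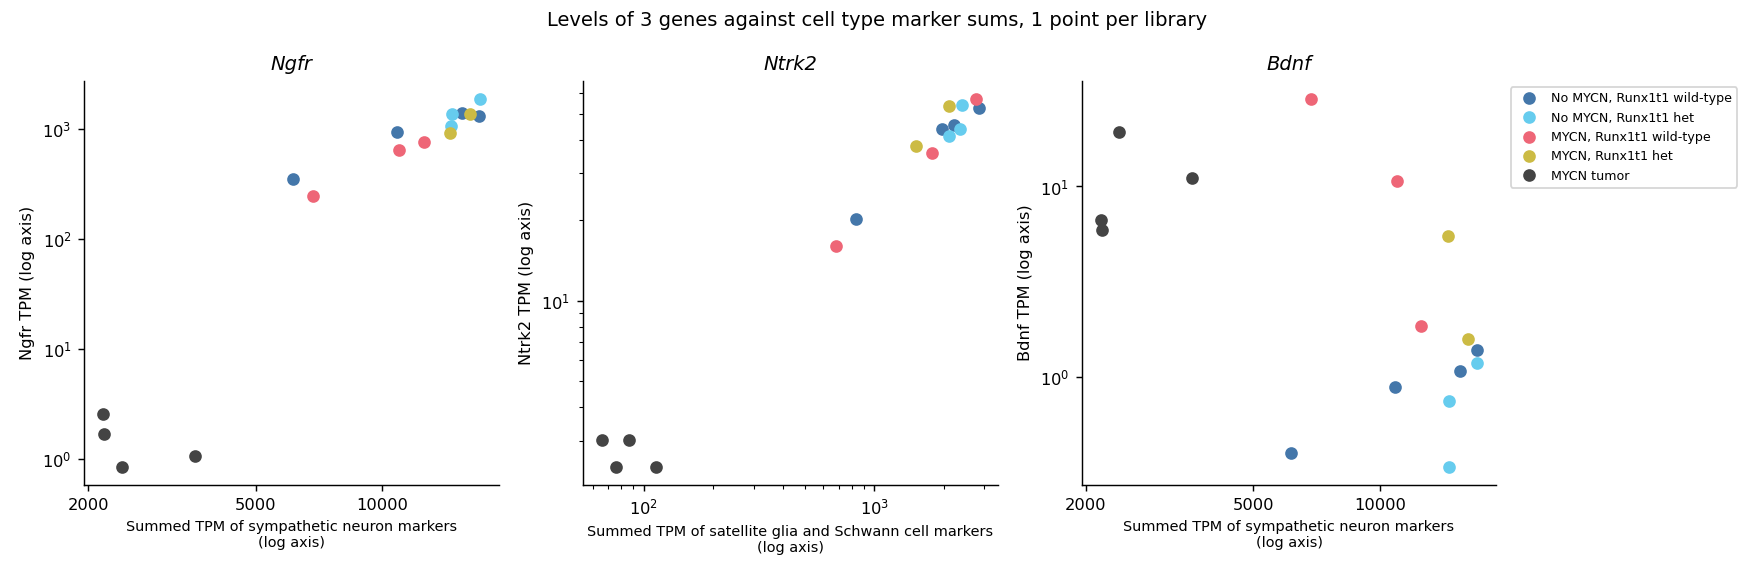
Level of Ngfr, Ntrk2 and Bdnf in TPM against summed TPM of neuron markers (Ngfr, Bdnf) or glial markers (Ntrk2), both on log axes, with 1 point for each library. The tumors lie at 2171 to 3582 TPM of neuron markers and 65.8 to 113 TPM of glial markers, apart from all ganglia.

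Ntrk2 encodes TrkB, the receptor of BDNF and neurotrophin-4, and in peripheral ganglia its transcript, mostly as the form without the kinase domain, is also known in glia. The counts are per gene and do not tell these forms apart. The gene lies at chr13:58806569-59133970 on the plus strand. Ntrk2 was at 45.7, 20.3, 52.6 and 43.8 TPM in transgene-free wild-type ganglia and at 53.9, 41.4 and 44.1 TPM in transgene-free het ganglia. It was at 16.1, 56.7 and 35.8 TPM in MYCN wild-type ganglia and at 53.7 and 37.9 TPM in MYCN het ganglia. The 4 tumors held 3.02, 2.40, 2.40 and 3.02 TPM, from 277 to 483 counts, and did not overlap with any ganglion. The lowest ganglia were the same 2 libraries as for Ngfr.

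Ntrk2 was 10.7-fold lower in tumors than in transgene-free ganglia (95% interval 6.65 to 17.3), a log2 fold change of -3.42 ± 0.32 (SE, edgeR adjusted p = 1.84e-06). The log2 fold change was -3.18 ± 0.34 against MYCN wild-type ganglia (edgeR adjusted p = 2.26e-05) and -3.45 ± 0.37 against MYCN het ganglia (edgeR adjusted p = 1.05e-05). Beside the glial markers the picture differed from that of Ngfr. Relative to 1000 TPM of summed glial markers, Ntrk2 was at 18.6 to 25.5 in the 12 ganglia and 21.2 to 45.9 in the 4 tumors, so it was not lower in tumors on that scale. Relative to 1000 TPM of neuron markers it was at 2.35 to 4.85 in ganglia and 0.843 to 1.26 in tumors. Across the 12 ganglia alone, log2(CPM + 1) of Ntrk2 and Ngfr had a Pearson r of 0.78, and across all 16 libraries 0.98, where the points fall into a tumor and a ganglion cluster. Both genes are read from the same libraries, with the same depth and cell mixture, so these values describe the libraries only.

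As Ngfr and Ntrk2 fell together in tumors, the 250 bases before their RefSeq start sites (GRCm38.p6) are shown, 5′ to 3′ on the gene's strand, with GC boxes (GGGCGG on either strand) in capitals. The Ngfr stretch is chr11:95587699-95587948, minus strand, and the Ntrk2 stretch chr13:58806319-58806568, plus strand.
Ngfr: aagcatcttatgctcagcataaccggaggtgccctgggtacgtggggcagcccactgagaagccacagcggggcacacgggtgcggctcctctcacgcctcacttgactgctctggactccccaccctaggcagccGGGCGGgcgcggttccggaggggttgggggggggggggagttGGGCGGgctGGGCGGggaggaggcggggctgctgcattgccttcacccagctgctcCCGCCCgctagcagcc
Ntrk2: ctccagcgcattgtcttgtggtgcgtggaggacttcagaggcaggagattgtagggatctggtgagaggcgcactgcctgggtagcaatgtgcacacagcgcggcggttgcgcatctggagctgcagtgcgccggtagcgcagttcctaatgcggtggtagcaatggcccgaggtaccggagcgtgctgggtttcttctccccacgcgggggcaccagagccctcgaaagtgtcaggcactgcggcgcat
The Ngfr stretch held 4 GC boxes, with 70.4% G and C and 16 CpG, and the Ntrk2 stretch none, with 62.8% G and C and 19 CpG. Neither held the E-box CACGTG, a sequence that MYC family proteins can bind. Of 32851 promoters of the same length, 32.7% held a GC box and 6.02% the E-box. These letters are a description of the windows and of no factor. By symbol, 4 of the 6 genes matched the promoter table, all but Ntrk3 and Sort1. Of the matched genes not shown, Bdnf had several start sites, and none of their windows held the E-box. For Ntf3, the window of 1 start site held the E-box, 231 bases before the start.

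Ntrk3 encodes TrkC, the receptor of neurotrophin-3, and lies at chr7:78175959-78738012 on the minus strand. It was at 13.4 to 43.3 TPM in the 7 transgene-free ganglia (median 27.0), at 14.3, 34.1 and 19.1 TPM in MYCN wild-type ganglia and at 33.7 and 18.8 TPM in MYCN het ganglia. The tumors held 31.3, 4.78, 9.72 and 10.97 TPM. In TPM, tumor replicate 1 lay within the range of the ganglia and the other 3 tumors below it. In normalized counts (CPM), tumor replicate 4 (19.5) was also within that range, above transgene-free wild-type replicate 2 (18.8). Over all 4 tumors Ntrk3 did not pass the test, with a log2 fold change of -0.51 against transgene-free ganglia (95% interval -1.48 to 0.47, edgeR adjusted p = 0.349). Without tumor replicate 1 it was called lower, at -1.24 (edgeR adjusted p = 0.0186). Against MYCN wild-type and MYCN het ganglia the log2 fold changes were -0.33 and -0.37, with adjusted p of 0.667 and 0.645 in edgeR.

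The make-up of the receptor transcripts differed between ganglia and tumors in these libraries. Summed over Ngfr, Ntrk2 and Ntrk3, the receptors held 387 to 1932 TPM in transgene-free ganglia and 9.79 to 35.4 TPM in tumors. Ngfr made up 90.8 to 96.7% of that sum in transgene-free ganglia and 3.02 to 26.7% in tumors. Ntrk3 made up 1.14 to 4.15% in transgene-free ganglia and 48.8 to 88.5% in tumors, and was the most abundant of the 3 in every tumor. The share of Ntrk2 was 2.14 to 5.24% in transgene-free ganglia and 8.53 to 24.5% in tumors. Ngfr held 89.2 to 92.2% in the 3 MYCN wild-type ganglia and 94.0 and 94.2% in the 2 MYCN het ganglia, close to its share in transgene-free ganglia. These shares are levels per transcript length and were not tested.

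**Figure D4:**
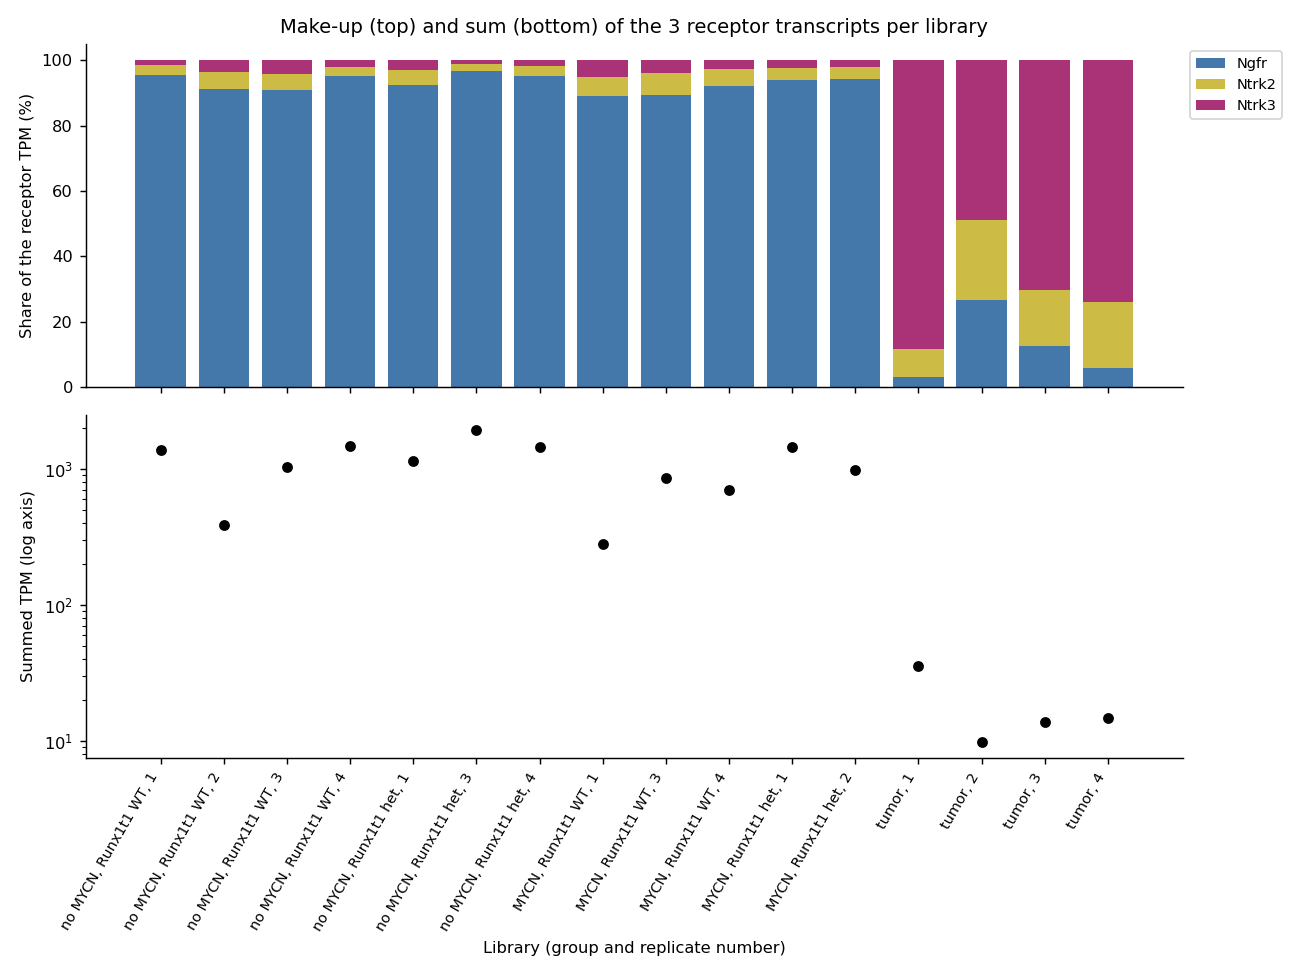
Share of each of 3 receptor transcripts in their summed TPM (bars, %) and that sum on a log axis (points) in every library. The sum is 9.79 to 35.4 TPM in tumors, where Ntrk3 holds 48.8 to 88.5% of it.

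Bdnf encodes BDNF, the ligand of TrkB, and was the single gene of the 6 called higher in any comparison. It lies at chr2:109674700-109727007 on the plus strand and shares exon positions with the antisense gene Gm45346. The library kit keeps strand, but whether counting used it is not given in the sources used here, so reads of the 2 genes may be mixed. Bdnf was at 1.39, 0.40, 0.89 and 1.08 TPM in transgene-free wild-type ganglia and at 0.34, 1.19 and 0.75 TPM in transgene-free het ganglia, from 7 to 65 counts. It was at 28.6, 1.85 and 10.7 TPM in MYCN wild-type ganglia, at 1.58 and 5.50 TPM in MYCN het ganglia and at 11.1, 6.71, 5.90 and 19.4 TPM in tumors. All 5 MYCN ganglia and all 4 tumors thus lay above all 7 transgene-free ganglia, the closest being 1.58 TPM in a MYCN het ganglion and 1.39 TPM in a transgene-free one. MYCN wild-type ganglia spread over the whole range from near the transgene-free level to above every tumor.

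Bdnf was 17.0-fold higher in tumors than in transgene-free ganglia (95% interval 6.53 to 44.1), a log2 fold change of 4.08 ± 0.64 (SE, edgeR adjusted p = 8.68e-05). Against MYCN wild-type ganglia the difference was -0.035 ± 0.74 (95% interval -1.63 to 1.56, edgeR adjusted p = 0.976). Against MYCN het ganglia it was 2.08 ± 0.94 and missed the threshold in edgeR (adjusted p = 0.0866), with all 4 tumors above both MYCN het ganglia, while DESeq2 called it at 2.06 (adjusted p = 0.0315). This value was 1.44 without MYCN het replicate 1, 1.63 without tumor replicate 4 and 3.28 without MYCN het replicate 2. Relative to 1000 TPM of neuron markers, Bdnf was at 0.0233 to 0.0820 in transgene-free ganglia, 0.0977 to 4.18 in MYCN ganglia and 2.70 to 8.05 in tumors.

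Within ganglia, the comparison of MYCN with transgene-free tissue asks what the transgene changes before tumors form. Where Runx1t1 was wild-type, Bdnf was the only gene of the 6 called between MYCN and transgene-free ganglia, with 0.936% of all genes called. The log2 fold change of Bdnf was 3.98 ± 0.81 (15.7-fold, 95% interval 4.72 to 52.6, edgeR adjusted p = 0.0407), higher in 3 of 3 MYCN wild-type ganglia than in all transgene-free ones. This call is near the threshold and rests on most libraries. Without MYCN wild-type replicate 1 the log2 fold change was 2.71 (edgeR adjusted p = 0.310), without MYCN wild-type replicate 4 it was 4.18 (0.111), and without transgene-free wild-type replicates 1, 3 or 4 the adjusted p was 0.0952, 0.108 and 0.127. MYCN wild-type replicate 1, with the highest Bdnf, also had low sums of neuron (6843 TPM) and glial (679 TPM) markers for a ganglion. In the same library the share of the gene Rn45s was 8.80%, against at most 5.64% in the other ganglia and 8.57 to 12.8% in tumors. The part of the cell mixture in its Bdnf level was not tested.

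Over all MYCN against all transgene-free ganglia, edgeR called none of the 6 genes and 0.042% of all genes, and 1 member, Bdnf, had an unadjusted p under 0.05. The log2 fold change of Bdnf was 3.06 ± 0.61 (95% interval 1.75 to 4.37, edgeR adjusted p = 0.0783), with all 5 MYCN ganglia above all 7 others. DESeq2 called it (3.07, adjusted p = 8.45e-05), as did edgeR without transgene-free wild-type replicate 2 (2.94, adjusted p = 0.0457) or MYCN wild-type replicate 3 (3.32, adjusted p = 0.00350). These were 3 of 20 alternatives, and the other 17 gave no call. Among those, the value was 2.43 without MYCN wild-type replicate 1 (edgeR adjusted p = 0.227), 2.46 without MYCN het replicate 2 and 4.24 over the libraries under 20000000 counts. The fit without MYCN het replicate 2 held 1 library of that group, and the last held 1 each of MYCN wild-type and transgene-free het. Ngfr was at 250 to 1367 TPM in MYCN ganglia and 353 to 1868 TPM in transgene-free ones, a log2 fold change of -0.61 (95% interval -1.39 to 0.18, edgeR adjusted p = 0.620). The log2 fold changes of Ntrk2, Ntrk3, Ntf3 and Sort1 were -0.10, -0.16, -0.34 and -0.016, each with groups that overlapped.

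Runx1t1 genotype gave no call among the 6 genes. For MYCN against transgene-free ganglia heterozygous for Runx1t1, edgeR called 0 members and 0% of all genes, while 242 of the 16665 genes had an unadjusted p under 0.05 and DESeq2 called 14. Bdnf was at 2.15 there (unadjusted p = 0.0347, edgeR adjusted p = 1), the single member with an unadjusted p under 0.05, and DESeq2 called 0 members. Its value there was 0.95 without MYCN het replicate 2 and 2.80 without MYCN het replicate 1. For Runx1t1 het against wild-type in MYCN ganglia, edgeR called 0 members and 0.012% of all genes. Bdnf was at -2.12 (95% interval -4.20 to -0.03, unadjusted p = 0.0472, edgeR adjusted p = 0.392) and Ngfr at 0.97 (95% interval -0.20 to 2.13, edgeR adjusted p = 0.472). The value of Ngfr was 0.65 to 1.25 with single libraries left out and 1.53 with a term for depth, with no call in any of these. Under 20000000 counts the value of Ngfr was 1.92, but MYCN wild-type held replicate 1 alone there, the ganglion lowest in Ngfr. Single libraries moved the value of Bdnf, to -0.84 without MYCN wild-type replicate 1, -1.48 without MYCN het replicate 1, -2.64 without MYCN wild-type replicate 3 and -3.32 without MYCN het replicate 2. Both MYCN het ganglia lay above all 3 MYCN wild-type ganglia in Ngfr, at 1367 and 925 against 250 to 769 TPM, while for Bdnf these groups overlapped. The summed neuron markers separated the same libraries, at 16171 and 14507 TPM in MYCN het and 6843 to 12523 TPM in MYCN wild-type ganglia. Relative to 1000 TPM of these markers, Ngfr was at 84.5 and 63.8 in MYCN het and 36.5 to 61.4 in MYCN wild-type ganglia, and the part of the cell mixture in this difference was not tested. DESeq2 also called 0 members for Runx1t1 het against wild-type in MYCN ganglia.

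For Runx1t1 het against wild-type in transgene-free ganglia, edgeR called 0 members and 0% of all genes, while 687 had an unadjusted p under 0.05 and DESeq2 called 5. Ngfr was at 0.50 and Bdnf at -0.28 in log2 fold change, with 95% intervals from -0.48 to 1.48 and from -1.99 to 1.42. The interaction, which asks whether the MYCN effect differs by Runx1t1 genotype, had 0 members called by edgeR and 0% of all genes, while 937 had an unadjusted p under 0.05 and DESeq2 called 31. In the interaction Bdnf was at -1.83 (95% interval -4.45 to 0.79) and Ngfr at 0.47 (-1.07 to 2.00). With single libraries left out, Bdnf ranged from -3.03 (without MYCN het replicate 2) to -0.55 (without MYCN wild-type replicate 1), and Ngfr from 0.15 (without MYCN wild-type replicate 1) to 0.75 (without MYCN wild-type replicate 3). The interaction of Ngfr was 1.16 with a term for depth. Over the libraries under 20000000 counts it was 1.61, but MYCN wild-type and transgene-free het held 1 library each there. In both the transgene-free comparison and the interaction, no member had an unadjusted p under 0.05 in edgeR, and DESeq2 called 0 members.

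Ntf3 encodes neurotrophin-3, made by targets and other non-neuronal cells for sympathetic axons, and lies at chr6:126101412-126166910 on the minus strand. It was scarce, at 0 to 18 counts in 15 libraries and 53 counts in transgene-free wild-type replicate 3, and a count of 0 allows up to 3. It was at 0, 0.17, 3.93 and 0.65 TPM in transgene-free wild-type ganglia, 0.51 to 0.88 TPM in transgene-free het ganglia and 0.33 to 1.15 TPM in the 5 MYCN ganglia. The tumors held 0, 0.38, 0.06 and 0.09 TPM. The tumors overlapped with the transgene-free ganglia and lay below the 3 MYCN wild-type ganglia, and the counts allow no firm order of the groups. The log2 fold change in tumors was -2.18 against transgene-free ganglia (95% interval -4.52 to 0.17, edgeR adjusted p = 0.0977), and single libraries moved it both ways. It was -3.51 without tumor replicate 2 (edgeR adjusted p = 0.0314) and -1.19 without transgene-free wild-type replicate 3 (edgeR adjusted p = 0.280). Ntf5, the gene of the ligand neurotrophin-4, was also low, at 0 to 0.54 TPM, and did not pass the test in any comparison.

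Sort1 encodes sortilin, which binds proneurotrophins together with p75 and sorts BDNF within the cell. It lies at chr3:108284082-108361511 on the plus strand and shares exon positions with the antisense gene Gm12523. Sort1 was at 24.7 to 58.2 TPM in the 7 transgene-free ganglia (median 49.5), 38.9 to 51.2 TPM in MYCN wild-type ganglia, 59.7 and 45.4 TPM in MYCN het ganglia and 27.3 to 42.3 TPM in tumors. The lowest ganglion, transgene-free wild-type replicate 2, was below every tumor. By counts, Sort1 differed little between tumors and any ganglia, with log2 fold changes of -0.11 against transgene-free (95% interval -0.50 to 0.28, edgeR adjusted p = 0.626), -0.00043 against MYCN wild-type and -0.18 against MYCN het ganglia. Levels in TPM and fitted differences are not on the same scale here. Over 14686 genes, the median log2 ratio of tumors to transgene-free ganglia was 0.43 lower in TPM than on the scale of TMM-normalized counts (CPM), and Sort1 stood 0.45 lower.

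Sortilin and p75 form a receptor complex for proneurotrophins, and the levels of their genes diverged in tumors. The ratio of Sort1 to Ngfr in TPM was 0.0311 to 0.0701 in transgene-free ganglia and 11.4 to 49.2 in tumors.

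The wider pathway was taken as 6 lists of 66 genes, of which 65 were tested. In tumors against transgene-free ganglia 32 of the 65 fell, 12 rose and 21 did not pass the test, while 30.9% of all genes were called lower and 30.6% higher. The median log2 fold change of the 65 was -0.69 beside -0.06 over all genes. Against MYCN wild-type ganglia 24 fell and 4 rose, with 20.5% of all genes called lower and 14% higher. Against MYCN het ganglia 24 fell and 7 rose, with 23.5% of all genes called lower and 22% higher. Over all MYCN against all transgene-free ganglia, edgeR and DESeq2 each called 0 of the 65, of which 3 had an unadjusted p under 0.05 in edgeR, beside 1574 of all 16665 genes. For MYCN against transgene-free ganglia with both Runx1t1 copies, edgeR called 0 of the 65, while 17 had an unadjusted p under 0.05, beside 3302 of all 16665 genes. DESeq2 called 7 of the 65 lower there and 1285 of all genes in either direction. For Runx1t1 het against wild-type in MYCN ganglia, edgeR again called 0, while 10 had an unadjusted p under 0.05, beside 2094 of all 16665 genes. DESeq2 called 1 of the 65 higher there and 264 of all genes in either direction.

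Among the genes that fell in tumors against transgene-free ganglia, large log2 fold changes were those of Shc3 (-8.05), which encodes a neuronal adaptor of Trk receptors, Slitrk5 (-5.30), which encodes a TrkB co-receptor, and Spry4 (-4.68), which encodes an inhibitor of receptor tyrosine kinase signalling. Shc3 was at 28.3 to 102.8 TPM in transgene-free ganglia and 0 to 0.29 TPM in tumors. Against MYCN wild-type and MYCN het ganglia, Shc3 was at -6.70 and -8.12 and Slitrk5 at -5.40 and -4.66, followed by Islr2 (-3.94), which encodes a membrane protein that binds Trk receptors, in the first and Spry4 (-4.62) in the second. Without tumor replicate 4, Islr2 was at -4.81 there, and Slitrk5 at -6.03, -6.12 and -5.39 against transgene-free, MYCN wild-type and MYCN het ganglia. The calls of Islr2 and Slitrk5 held without any single tumor. Of 14 genes that neurotrophin signalling is known to induce, 9 fell in tumors against transgene-free ganglia, where 30.9% of all genes were called lower. Among them were Egr3 (-4.13) and Arc (-3.23), while Npas4 rose (1.70) and 4 did not pass. Of the same 14, 7 fell against MYCN wild-type and 8 against MYCN het ganglia, with no gene of the list called higher in edgeR, beside 20.5% and 23.5% of all genes lower.

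Of 20 Trk adaptors and effectors, 9 fell, 6 rose and 5 did not pass in tumors against transgene-free ganglia, beside 30.9% of all genes lower and 30.6% higher. Against MYCN wild-type ganglia 6 of the 20 fell and 3 rose, and against MYCN het ganglia 5 fell and 6 rose, where 34.5% and 45.5% of all genes were called. The adaptor gene Sh2b2 rose in tumors against transgene-free ganglia (1.58 ± 0.28, edgeR adjusted p = 0.000249). Crkl, an adaptor gene, rose against MYCN wild-type ganglia (0.53). Rapgef1, which encodes an exchange factor that activates Rap1, rose against MYCN wild-type (0.63) and MYCN het ganglia (1.06). The first of these Rapgef1 calls ended without any 1 of the 4 tumors or of MYCN wild-type replicates 3 and 4 (edgeR adjusted p 0.0595 to 0.217). Sh2b2 also rose against MYCN het ganglia (1.83). Without MYCN het replicate 1, Rapgef1 was at 0.99 and Sh2b2 at 1.71 against that group, and neither was called. That fit held 1 MYCN het library, with the spread taken from the other groups. Among 11 tested genes of ligand processing, 6 fell and 1 was called higher in tumors against transgene-free ganglia, a count near the 61.4% of all genes called. Furin, which encodes a protease that cleaves proneurotrophins, was among those that fell (-0.84). Against MYCN wild-type and MYCN het ganglia 5 and 4 of the 11 fell, beside 20.5% and 23.5% of all genes called lower. Plg, which encodes plasminogen, a protease precursor, was the 1 called higher against transgene-free ganglia (5.21), but on 1 library: it was at 0.27 to 201 TPM in tumors with a median of 1.43, and without tumor replicate 3 its log2 fold change was -0.32 (edgeR adjusted p = 0.861). The call of Npas4 also ended without tumor replicate 1 (1.10, edgeR adjusted p = 0.172), and without tumor replicate 4 or any transgene-free het replicate its adjusted p was 0.0548 to 0.0656. Of 10 partners of p75, 3 rose, 3 fell and 4 did not pass in tumors against transgene-free ganglia, again near the 61.4% of all genes called. Against MYCN wild-type ganglia 1 of the 10 rose and 1 fell, beside 34.5% of all genes called. Against MYCN het ganglia 1 rose and 2 fell, beside 45.5% of all genes called. Traf6, which encodes a ubiquitin ligase that binds p75, rose against MYCN wild-type (0.79) and MYCN het ganglia (1.07). The first of these Traf6 calls ended without tumor replicate 4 or MYCN wild-type replicates 3 or 4 (edgeR adjusted p 0.0597 to 0.101). Without MYCN het replicate 1, which again left 1 library of that group, the second was at 0.92 and was not called. In tumors against transgene-free ganglia, of the other 4 genes of the sortilin family, Sorl1 (-2.62) and Sorcs2 (-2.79) fell, Sorcs3 rose (2.84) and Sorcs1 did not pass.

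**Figure D5:**
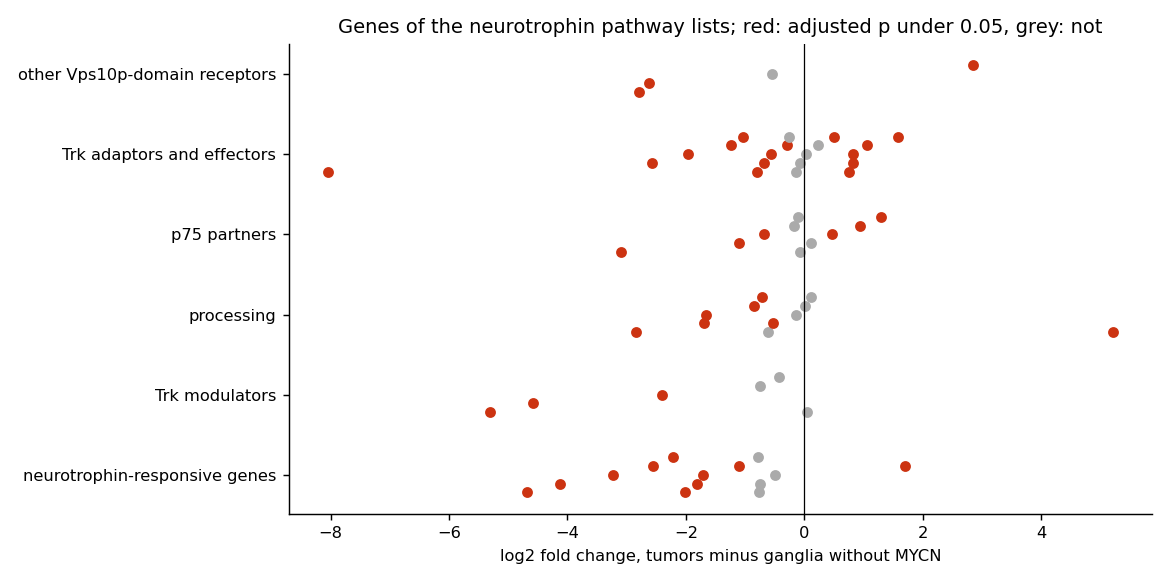
Log2 fold change in tumors against ganglia without MYCN for the 65 tested genes of 6 neurotrophin pathway lists, red where the adjusted p is under 0.05. In all, 32 genes were called lower and 12 higher, Plg being the farthest to the right at 5.21.

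Over the 16 libraries, the genes whose log2(CPM + 1) ran closest to each member were found by Pearson r, as a description of libraries that share tissue and tumor status. Among the genes closest to Ngfr were Ppfibp2 (r = 0.996) and Vwc2l, and over the 12 ganglia alone r with Ppfibp2 was 0.97. Ntrk2 ran closest to Matn4 (0.996), Col5a3 and Megf10, Ntrk3 to Appl2 (0.923), Col9a2 and Ggn, and Bdnf to Efna2 (0.969), Zfp266 and Igfbpl1. For Sort1 they were Tram1l1 (0.911), Slc39a3 and Dlg5, and for the scarce Ntf3 Hacd4 (0.838), Trpv4 and Dmpk. On log2(TPM + 1), 1 to 3 of the 3 genes were again among the closest for each member.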

How the data were processed

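RNA was sequenced from 16 libraries with a stranded total RNA kit, although the labels give polyA RNA as the molecule. The authors aligned reads to mm10 with STAR, used SAMtools, and quantified genes with RSEM; the annotation is not given in the sources used here. The authors deposited 2 kinds of value per gene, the expected counts as RSEM gave them, not normalized, and TPM, which sum to the same total in each library. Column headers call wild-type Runx1t1 "Hom", read here as homozygous wild type as the labels have it.

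Expected counts were rounded, and R 4.3.3 with edgeR 4.0.16 filtered genes with filterByExpr by group (16665 of 24411 kept), scaled libraries by TMM and used 1 quasi-likelihood model over all 5 groups, with Benjamini-Hochberg adjustment at 0.05 for 9 contrasts. The scripts were tested on simulated data. Alternatives were DESeq2 1.42.0, upper-quartile scaling, no filter, a replicate block, only the groups compared, a depth term, leaving out Rn45s or each library, and, chosen after seeing the data, only libraries over or under 20000000 counts. Total counts of 10692299 to 38618757 limit precision for genes such as Ntf3. Members and lists were chosen with earlier results of these data known. All 6 members were named; from the pathway lists, up to 3 higher and 3 lower genes with the largest changes were named for each contrast among called genes with a mean of at least 1 TPM, and others named from a list are examples chosen after their values were seen. Some genes of these lists are not reported here. Positions come from GENCODE on GRCm38 and promoters from RefSeq on GRCm38.p6.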

Additional observations from a re-analysis of the deposited data

Results flagged for a closer look

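Values in groups of 4 libraries were looked at for a library far from the other 3. Of 38 groups of values, 9 stood out by Dixon's test. Chance alone gives about 1 in 20 for normally distributed values. Levels and sums in TPM need not be so distributed, so this share is no measure of how unusual the 9 are. Among transgene-free wild-type ganglia, Ntf3 was 3.93 TPM in replicate 3 against at most 0.65 in the others, and Sort1 was 24.7 TPM in replicate 2 against 49.4 to 52.7. The same replicate 2 had summed macrophage markers of 345 TPM against 33.2 to 65.0 and lymphocyte markers of 704 TPM against 3.53 to 10.8, and replicate 3 had adrenal cortex markers of 47.6 TPM against 5.37 to 9.05. Among tumors, Ntf5 was 0.43 TPM in replicate 1 and listed at 0 in the others, where any value above 0 would stand out. Tumor replicate 1, which also had the highest Ntrk3, had summed neuron markers of 3582 TPM against 2171 to 2404. Fibroblast markers summed to 512 TPM in tumor replicate 4 against 174 to 225, and endothelial markers to 79.1 TPM in tumor replicate 2 against 29.6 to 35.9. The causes were not tested.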

How the results depend on the processing

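The counts of members called for tumors held, at 3 to 4, 2 and 2 to 3 against transgene-free, MYCN wild-type and MYCN het ganglia. Ngfr and Ntrk2 were called lower in these comparisons under every alternative run, within libraries over 20000000 counts too (-9.33 and -3.47 against transgene-free ganglia, Bdnf 3.90). Tumors are all above that depth and both MYCN het libraries below it. Below that depth, transgene-free het and MYCN wild-type each held only replicate 1, so values there rest on 1 library of these groups. The share of Rn45s, 2.15 to 8.80% in ganglia and 8.57 to 12.8% in tumors, differed between the groups, and these calls held without this gene.

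For all MYCN against all transgene-free ganglia, the count of 0 members became 1 (Bdnf) with DESeq2 and 0 to 1 with single libraries left out. For MYCN against transgene-free wild-type ganglia, the count of 1 (Bdnf) became 0 with the replicate block (3.74, adjusted p = 0.0797). It also became 0 with only the groups compared (3.97, 0.378) and over 20000000 counts (2.73, 0.441), and 0 to 1 with libraries left out. The cause was not tested. Under 20000000 counts the value of Bdnf was 5.18, but MYCN wild-type replicate 1 was the only library of its group there. The labels do not say whether the replicate numbers pair the libraries, and correlations between libraries do not settle it. Of 25 pairs of the same number in different groups, 6 had deviations correlated above 0.1, beside 17 of 76 pairs of different number. Depth went with the number in ganglia, with replicates 1 and 2 under 20000000 counts and replicates 3 and 4 over it. The replicate block changed no other count of members.

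Small differences turned sign. Against MYCN wild-type ganglia, Bdnf was 0.13 with the replicate block, 0.35 with the depth term, 0.012 without Rn45s, 1.19 over 20000000 counts and -0.56 to 1.24 with libraries left out. Sort1 there was 0.0036 with DESeq2, 0.12 with the replicate block, 0.041 without Rn45s and -0.15 to 0.10 with libraries left out, and Ntrk3 -1.06 to 0.11. Against MYCN het ganglia, leaving out libraries gave Ntrk3 -1.10 to 0.090 and Sort1 -0.35 to 0.0048. For all MYCN ganglia, Ntf3 was 0.068 with the replicate block and 0.18 with the depth term, and Sort1 was 0.0024 with no filter, 0.069 with the replicate block, 0.045 with the depth term and 0.17 under 20000000 counts. Leaving out libraries there gave Ntrk2 -0.33 to 0.055, Ntrk3 -0.38 to 0.040, Ntf3 -0.67 to 0.65 and Sort1 -0.10 to 0.066. In het ganglia, Ngfr for MYCN was 0.13 with the depth term and 0.063 under 20000000 counts. Bdnf for Runx1t1 het without MYCN was 0.035 over 20000000 counts and -0.76 to 0.018 with libraries left out.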
